A study of Mus musculus with 4 samples.

Results

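The R-spondin system of the adult mouse lung was described here through 9 genes: the secreted ligands Rspo1, Rspo2, Rspo3 and Rspo4, their receptors Lgr4, Lgr5 and Lgr6, and the membrane ubiquitin ligases Znrf3 and Rnf43, which the ligands and receptors act on. The members were the rows of the deposited matrix that carried these symbols, 9 of 31055 features, and all 9 were present; no measured value entered that choice. The cells came from lungs of mice about 8 weeks old that had been given tamoxifen and carried 1 copy of Gli1-CreERT2 and 1 copy of the Rosa26 mTmG reporter, and they had been sorted as CD45neg CD31neg, that is, without most blood and vessel lining cells. In such mice, cells with Gli1 activity when tamoxifen is given switch from a membrane red protein to a membrane green one, so every cell analysed shared this genotype and treatment, and no untreated, vehicle or wild-type group was part of the comparison. The 4 samples carried the same labels, and 1 matrix pooled them with a single barcode suffix and no map from cells to samples, so the matrix counted as 1 sample: cell types were compared by UMI counts (unique molecular identifiers, each standing for 1 captured RNA), no p-value was computed, and every interval below is a 95% interval for counting error only.

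R-spondins are secreted proteins that amplify Wnt signalling. In the usual scheme ZNRF3 and RNF43 tag the Wnt receptors of the Frizzled family and their LRP co-receptors for removal from the cell surface; an R-spondin bridges an LGR receptor and one of these ligases, the ligase is cleared, and Frizzled accumulates. ZNRF3 and RNF43 are themselves induced by beta-catenin signalling in several tissues and so form a negative feedback loop. In the lung, Wnt signals are known to maintain alveolar type 2 cells, and Lgr5 and Lgr6 have been used to mark mesenchymal cells beside the alveoli and the airways.

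The matrix held 11118 distinct barcodes and 85746975 UMIs. After removal of 1296 barcodes with fewer than 500 genes, of 1545 with over 10% mitochondrial UMIs (some failed both) and of 458 called doublets, 8933 cells with a median of 7967 UMIs (699 to 77372) remained. They formed 23 clusters, which were named from marker genes that included no member; the members and the Wnt pathway lists were also left out of the clustering. Named "-like" from those markers were 3636 adventitial fibroblast-like cells, 2044 alveolar fibroblast-like cells, 407 peribronchial or myofibroblast-like cells (led by Agt, P2ry14, Enpp2 and Hhip), 195 smooth muscle-like cells and 209 mesothelial-like cells. These 6491 cells are called mesenchymal here. The 2199 epithelial cells were 1677 alveolar type 2 (AT2)-like, 210 alveolar type 1 (AT1)-like, 226 ciliated-like and 86 club or secretory-like cells. Despite the sort, 82 cells carried leukocyte markers and 60 carried endothelial markers; 18 were proliferating and 83, with both alveolar fibroblast and AT2 genes, stayed unnamed. A UMI total of a class scaled to a common total as CPM (UMIs per 1e6 UMIs) is the level used throughout.

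All 9 genes were located in the GENCODE M21 annotation of mm10 (GRCm38). The ligand genes lie at chr4:124986430-125009099 on the plus strand (Rspo1, ENSMUSG00000028871), chr15:43020794-43170826 on the minus strand (Rspo2, ENSMUSG00000051920), chr10:29452416-29535867 on the minus strand (Rspo3, ENSMUSG00000019880) and chr2:151842927-151874668 on the plus strand (Rspo4, ENSMUSG00000032852). The receptor genes lie at chr2:109917647-110014257 on the plus strand (Lgr4, ENSMUSG00000050199), chr10:115450311-115587780 on the minus strand (Lgr5, ENSMUSG00000020140) and chr1:134983301-135105276 on the minus strand (Lgr6, ENSMUSG00000042793). Znrf3 (ENSMUSG00000041961) spans chr11:5276324-5444847 on the minus strand and Rnf43 (ENSMUSG00000034177) chr11:87662722-87735539 on the plus strand. Antisense or other opposite-strand genes overlap Rspo1 (Gm12930), Rspo3 (Gm48159), Rspo4 (Rspo4os), Lgr5 (A930009A15Rik) and Rnf43 (Gm25968). Same-strand genes overlap Rspo3 (Gm20276) and Rnf43 (1110028F11Rik). The strand setting of the counting was not given in the sources used here, so how reads in those overlaps were assigned is not known.

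Promoter sequences from RefSeq (GRCm38.p6, 250 bases upstream of the start of transcription) matched 5 of the 9 members: Rspo1, Rspo4, Lgr4, Lgr6 and Rnf43. The sequences of Rspo1 and Lgr6 are shown because Rspo1 and Lgr6 had the highest ratios above 1 between classes among the ligands and the receptors. The Rspo1 window lies at chr4:124986180-124986429 on the plus strand and the Lgr6 window at chr1:135105277-135105526 on the minus strand, each printed 5′ to 3′ on the gene's own strand, with capitals for a GC box (GGGCGG on either strand).
Rspo1: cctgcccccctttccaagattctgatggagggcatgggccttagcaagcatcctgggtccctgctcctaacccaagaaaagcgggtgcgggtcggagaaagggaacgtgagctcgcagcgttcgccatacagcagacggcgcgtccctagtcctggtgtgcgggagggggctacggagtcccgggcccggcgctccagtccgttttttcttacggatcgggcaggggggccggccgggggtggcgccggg
Lgr6: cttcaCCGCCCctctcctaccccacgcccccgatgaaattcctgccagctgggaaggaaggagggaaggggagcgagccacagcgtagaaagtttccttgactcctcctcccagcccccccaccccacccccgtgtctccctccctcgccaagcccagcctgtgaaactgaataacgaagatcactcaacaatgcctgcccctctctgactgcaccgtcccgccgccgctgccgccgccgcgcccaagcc
The Rspo1 window held none of the motifs searched on both strands, and the Lgr6 window held a GC box starting 245 bases before the start. GC boxes were also found in the Rspo4 window, and 32.7% of all 32851 promoter windows held one. A CArG box (CC, 6 bases of A or T, GG), the motif of serum response factor, was found in the Lgr4 window and in 1.47% of all windows. The TCF/LEF motifs CTTTGA and CTTTGT (13.8% and 16.5% of all windows) and the TATA box TATAAA (12.4%) were found in none of the members' windows. Matches are a description of these letters only.

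Rspo1, the ligand with the most UMIs (1814 in 618 cells), was concentrated in the mesothelial-like cells, the lining of the lung surface. Its level was 701 CPM in mesothelial-like cells (664 to 740), 13.1 CPM in adventitial-like cells (11.9 to 14.4), 3.71 CPM in peribronchial or myofibroblast-like cells (6 UMIs), 1.69 CPM in alveolar fibroblast-like cells (1.02 to 2.64) and 0.65 CPM in smooth muscle-like cells (1 UMI). Epithelial levels were 6.24 CPM in AT1-like cells (3.23 to 10.9), 3.64 CPM in ciliated-like cells, 2.36 CPM in club-like cells and 0.489 CPM in AT2-like cells. Mesothelial-like and adventitial-like intervals stood clear of each other and of the next class, whereas the intervals of every neighbouring pair below the AT1-like cells overlapped. The 209 mesothelial-like cells supplied 72.1% of all Rspo1 UMIs and the 3636 adventitial-like cells 24.1%.

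Nearly every mesothelial-like cell held Rspo1: 202 of 209 cells (96.7%, 93.2 to 98.6) held at least 1 UMI, with a median of 6 UMIs, a 10th percentile of 1.8, a 90th percentile of 12 and a highest count of 25. With each cell thinned to 2000 UMIs, 74.9% of mesothelial-like cells held one, against 2.24% of adventitial-like cells and 0.12% of AT2-like cells, the class taken as a measure of free RNA (median depths before thinning 8655, 8872.5 and 9450 UMIs). The adventitial-like UMIs were themselves uneven. Cluster 4, led by Penk and Ccl8, stood at 35.5 CPM (31.2 to 40.3), which was 4.75-fold above the other adventitial-like clusters (3.92 to 5.76), and cluster 5, led by Bmp7, Lamc3 and Adh7, at 0.648 CPM. The 10 mesothelial markers summed to 13751 CPM in the mesothelial-like cells, and to 77.2 CPM in cluster 4, 52.0 CPM in cluster 13, 197 CPM in cluster 1 and 144 CPM in cluster 2. Given the mesothelial ratio of Rspo1 to those markers, the Rspo1 level was set against the level their RNA would carry. It was 9.03 times that level in cluster 4, 5.78 times in cluster 13, and 1.02 and 1.04 times in clusters 1 and 2. Alveolar clusters 3, 6 and 7, with these markers at 173, 116 and 136 CPM, stood at 0.12, 0.31 and 0.33 times, and AT2-like cells at 0.12 times. Like marker sums thus went with unlike Rspo1 levels, and the source of Rspo1 in clusters 1 and 2 was not tested. In AT1-like cells the markers summed to 918 CPM (4 of 10 at 0), against 77.5 CPM in AT2-like cells, and Rspo1 was 0.13 times. Whether AT1-like cells make some of these markers themselves was not tested, so that value does not measure carried RNA.

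**Figure D1:**
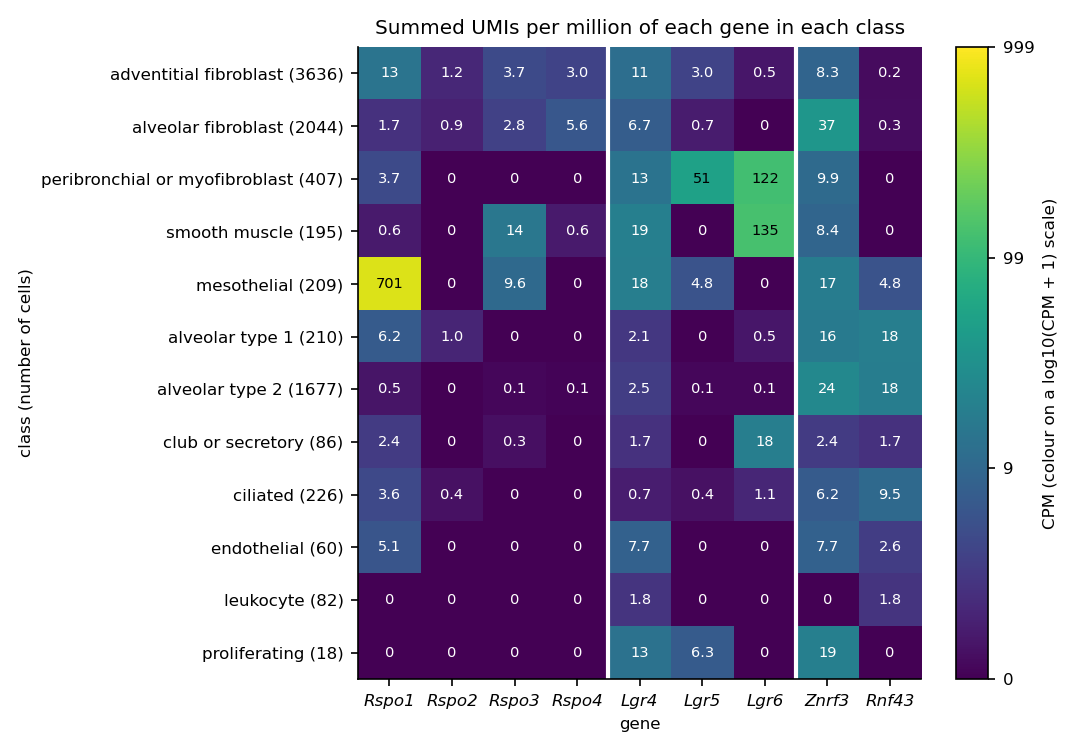
Heat map of the level of each of the 9 genes (columns) in each cell class (rows), in CPM summed over the cells of a class (log colour scale). The value is printed in each cell. Rspo1 at 701 in the mesothelial-like class and Lgr6 at 135 in the smooth muscle-like and 122 in the peribronchial or myofibroblast-like class stand out. Rnf43 is highest in the AT1-like and AT2-like classes.

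Rspo2, a ligand of embryonic lung and limb growth, was close to the detection limit. It had 54 UMIs in 53 of 8933 cells, 39 of them in adventitial-like cells (1.17 CPM, 0.832 to 1.60) and 10 in alveolar fibroblast-like cells (0.889 CPM, 0.426 to 1.63), and these levels overlapped. No UMI was found in mesothelial-like, smooth muscle-like, peribronchial or myofibroblast-like or AT2-like cells. In the 407 peribronchial or myofibroblast-like cells that allows a level of up to 1.86 CPM (3 UMIs), so a level like that of the adventitial-like cells could not be told from 0 there.

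Rspo3, best known from vessels and mesenchymal niches, had 197 UMIs, and its order differed from that of Rspo1. It stood at 14.3 CPM in smooth muscle-like cells (22 UMIs, 8.96 to 21.6), 9.65 CPM in mesothelial-like cells (18 UMIs, 5.72 to 15.2), 3.66 CPM in adventitial-like cells (3.04 to 4.37) and 2.76 CPM in alveolar fibroblast-like cells (1.87 to 3.91). The first pair overlapped, as did the last, and the mesothelial-like interval lay above the adventitial-like one. That separation was lost in mesothelial-like cluster 12 taken alone, at 5.99 CPM (10 UMIs). Its interval began at 2.87 CPM and overlapped the adventitial-like one. The 26 cells of cluster 20, named mesothelial-like and led by Lgals7, Isl1 and Wt1, had the highest cluster level, 40.8 CPM (8 UMIs, 17.6 to 80.3). This interval overlapped that of the smooth muscle-like cells. Adventitial markers in cluster 20 summed to 22609 CPM and mesothelial markers to 7132 CPM, so its cells were of mixed markers. Within the adventitial-like class Rspo3 was 9.08-fold higher in cluster 4 than in the others (6.10 to 13.7), the cluster where Rspo1 was also highest. In the epithelial cells as a whole 3 Rspo3 UMIs were found.

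Rspo4, known in humans for its role in nail growth, was highest in adventitial-like cluster 5 and in alveolar fibroblast-like clusters 7 and 3. Adventitial markers summed to 8491 CPM in cluster 5, against 16262 to 29652 CPM in the other adventitial-like clusters. Its alveolar fibroblast markers summed to 6958 CPM (2471 to 8450 CPM in the others). Alveolar cluster 6 had 1.84 CPM of Rspo4 (0.795 to 3.63). Its 170 UMIs gave 5.60 CPM in alveolar fibroblast-like cells (4.30 to 7.16) and 3.03 CPM in adventitial-like cells (2.47 to 3.68), with 1 UMI in smooth muscle-like and none in mesothelial-like or peribronchial or myofibroblast-like cells. By cluster, adventitial-like cluster 5 stood at 11.8 CPM (9.27 to 14.9) and alveolar clusters 7 and 3 at 8.12 CPM (5.25 to 12) and 7.83 CPM (5.28 to 11.2), which overlapped; cluster 5 was 11.5-fold above the other adventitial-like clusters (7.32 to 18.4). Adventitial-like clusters 4 and 2, with Rspo1, held 1 Rspo4 UMI each.

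Lgr4, the broadly expressed receptor, was the most even of the 3. It had 598 UMIs, 89.1% of them mesenchymal, with 18.8 CPM in smooth muscle-like cells (12.6 to 27.1), 18.2 CPM in mesothelial-like cells (12.6 to 25.5), 13 CPM in peribronchial or myofibroblast-like cells (8.04 to 19.9), 11.2 CPM in adventitial-like cells (10.1 to 12.4) and 6.67 CPM in alveolar fibroblast-like cells (5.24 to 8.36). Neighbours in this mesenchymal order overlapped except the last pair. AT2-like cells stood at 2.50 CPM (1.80 to 3.40) and ciliated-like cells at 0.728 CPM (2 UMIs). The highest cluster was adventitial-like cluster 13, led by Efhd1 and Thy1, at 23.5 CPM, 2.24-fold above the other adventitial-like clusters (1.59 to 3.08).

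Lgr5, the receptor known from intestinal stem cells, marked 2 mesenchymal clusters and a small mesothelial-like one. Its level was 50.7 CPM in the peribronchial or myofibroblast-like cells (82 UMIs, 40.4 to 63.0), 4.82 CPM in mesothelial-like cells (9 UMIs), 2.97 CPM in adventitial-like cells (2.42 to 3.62) and 0.711 CPM in alveolar fibroblast-like cells (8 UMIs), with no UMI in smooth muscle-like cells. Adventitial-like cluster 5 carried 78 of the 99 adventitial-like UMIs (12.6 CPM, 16.3-fold above the other clusters, 9.98 to 27.8) and mesothelial-like cluster 20 carried 7 of 9 (35.7 CPM, 14.3 to 73.5). Both clusters also held markers of another class. In cluster 5 adventitial markers summed to 8491 CPM and alveolar fibroblast markers to 6958 CPM. In cluster 20 mesothelial markers summed to 7132 CPM and adventitial markers to 22609 CPM. The 9 peribronchial or myofibroblast markers summed to 12910 CPM in the peribronchial or myofibroblast-like cells, 1158 CPM in cluster 5 and 1921 CPM in cluster 20, and Lgr5 was 2.78 times and 4.72 times the level that those sums carry in clusters 5 and 20.

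Lgr6, a receptor known to mark airway smooth muscle, was high in the contractile classes and detected in club-like cells. It stood at 135 CPM in smooth muscle-like cells (207 UMIs, 117 to 154), 122 CPM in peribronchial or myofibroblast-like cells (197 UMIs, 105 to 140) and 18.2 CPM in club-like cells (54 UMIs, 13.7 to 23.7). The first pair overlapped; the club-like interval lay below both and above every other class. In adventitial-like cells it was 0.51 CPM, and no UMI was found among 2044 alveolar fibroblast-like or 209 mesothelial-like cells. Thinned to 2000 UMIs, 21.6% of peribronchial or myofibroblast-like cells, 16.3% of smooth muscle-like cells and 2.33% of club-like cells held Lgr6, against none of 1669 AT2-like cells, which allows a share of cells with an Lgr6 UMI at that depth of up to 0.180% (3 cells) and sets no limit on cells that express the gene; unthinned the shares were 36.4%, 43.1%, 24.4% and 0.119% (median depths 3824, 7053, 32221 and 9450 UMIs). The 9 smooth muscle markers summed to 8934 CPM in the peribronchial or myofibroblast-like cells and 250 CPM in the club-like cells, against 43383 CPM in the smooth muscle-like cells. Lgr6 was 4.40 times and 23.5 times the level those sums carry. The club-like UMIs came from 21 of 86 cells, with up to 10 in one cell.

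Lgr5 and Lgr6 shared the peribronchial or myofibroblast-like class. Of 55 peribronchial or myofibroblast-like cells with Lgr5, 30.9% also held Lgr6, against 37.2% of the cells without Lgr5 (median depths 3909 and 3808.5 UMIs). Lgr4 and Lgr6 met more often: of 25 smooth muscle-like cells with Lgr4, 72.0% held Lgr6, against 38.8% of the rest, and the median depths were 9791 and 6750 UMIs, so the part of depth in this gap was not tested.

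**Figure D2:**
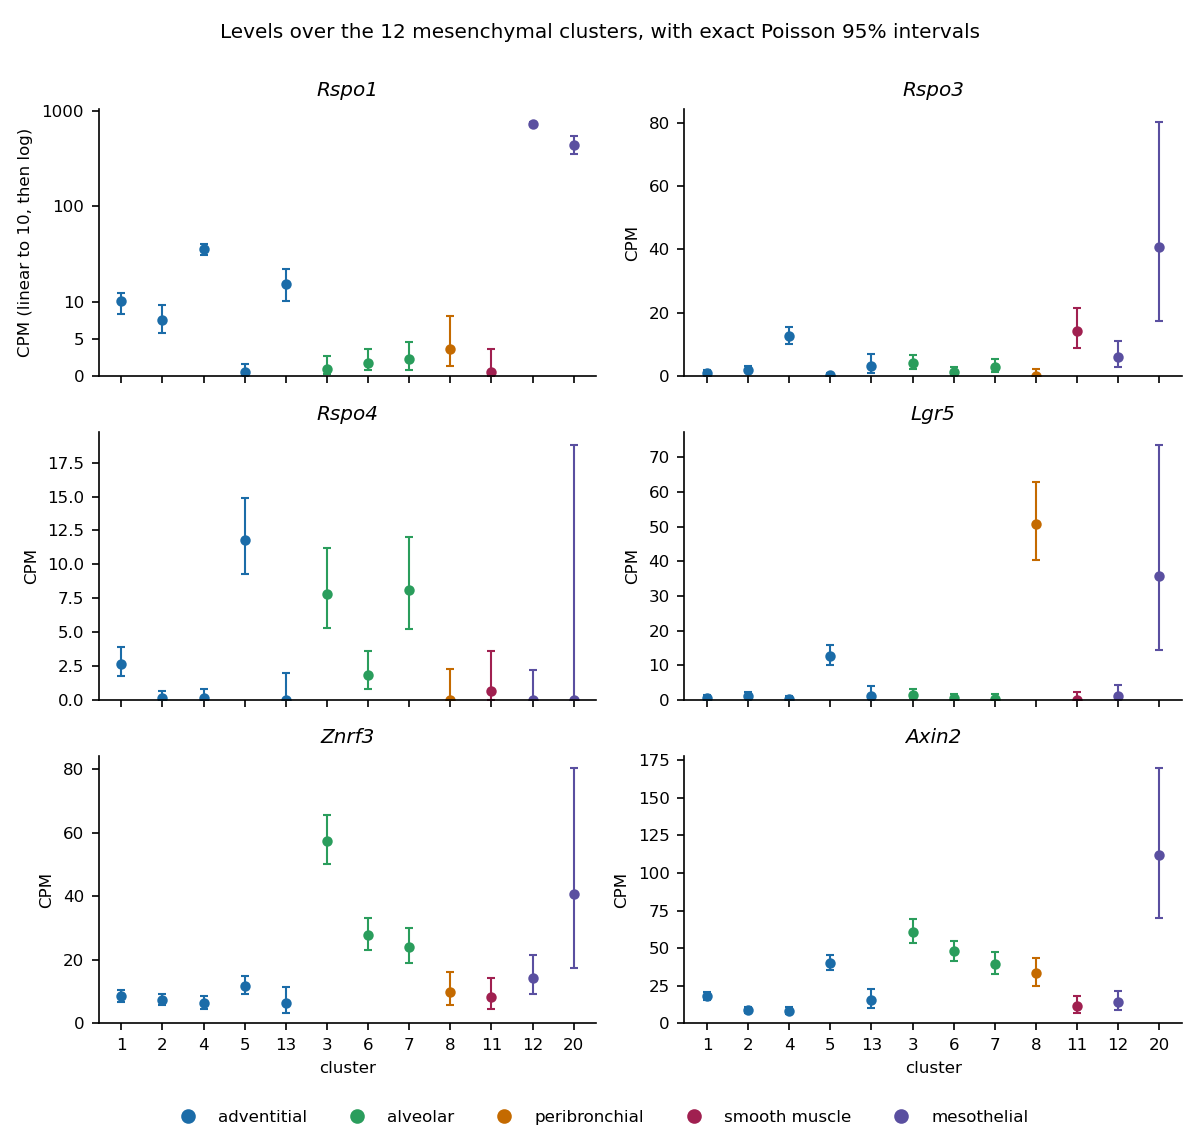
Levels (CPM, with exact 95% counting intervals as bars) of Rspo1, Rspo3, Rspo4, Lgr5, Znrf3 and Axin2 in each mesenchymal cluster, coloured by class. Rspo1 peaks in mesothelial-like clusters 12 and 20, Rspo4 in adventitial-like cluster 5, Lgr5 in cluster 8 at 50.7, and Znrf3 in alveolar cluster 3 at 57.4.

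Rnf43 UMIs lay mostly in the epithelium. Rnf43 was 14.9 CPM in epithelial cells (13.4 to 16.5) and 0.383 CPM in mesenchymal cells (0.231 to 0.598). By class it stood at 18.2 CPM in AT1-like cells (12.7 to 25.3), 17.8 CPM in AT2-like cells (15.8 to 20), 9.47 CPM in ciliated-like cells (6.18 to 13.9), 4.82 CPM in mesothelial-like cells (9 UMIs), 1.68 CPM in club-like cells (5 UMIs), 0.267 CPM in alveolar fibroblast-like cells and 0.21 CPM in adventitial-like cells, with none in smooth muscle-like or peribronchial or myofibroblast-like cells. The AT1-like and AT2-like levels overlapped. Thinned shares were 3.76% in AT1-like and 3.18% in AT2-like cells, against none of 3617 adventitial-like cells. AT1-like cells of cluster 14, whose AT2 markers summed to 1035 CPM against 239832 CPM in AT2-like cells, had 23.9 CPM (14.8 to 36.5), the highest of any cluster. This interval overlapped those of AT2-like clusters 0 and 9 (17.9 and 17.7 CPM). Against the other AT1-like clusters the ratio was 1.78 (0.863 to 3.78).

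Znrf3 was present in both lineages. It stood at 36.9 CPM in alveolar fibroblast-like cells (33.4 to 40.6), 23.8 CPM in AT2-like cells (21.5 to 26.3), 17.2 CPM in mesothelial-like cells (11.7 to 24.2) and 16.1 CPM in AT1-like cells (11 to 22.9). Of the 31 AT1-like UMIs 16 came from cluster 19, at 26.5 CPM against 11.4 CPM in the other AT1-like clusters (2.32-fold, 1.08 to 5.05), where the 10 alveolar fibroblast markers summed to 11085 CPM; their part in this level was not tested. Lower levels were 9.90 CPM in peribronchial or myofibroblast-like cells, 8.45 CPM in smooth muscle-like cells, 8.28 CPM in adventitial-like cells (7.34 to 9.32), 6.19 CPM in ciliated-like cells and 2.36 CPM in club-like cells. Alveolar fibroblast-like and AT2-like intervals did not overlap, and neither did those of AT2-like and adventitial-like cells. Among alveolar clusters, cluster 3, led by Slc7a10 and Bmper, had 57.4 CPM (50.1 to 65.6), 2.19-fold above the other alveolar clusters (1.79 to 2.66), and its Axin2, a negative regulator and widely used Wnt target, was 61.1 CPM, 1.37-fold above (1.15 to 1.63). Among mesothelial-like cells, cluster 20 exceeded cluster 12 in Znrf3 (40.8 and 14.4 CPM, 2.84-fold, 1.10 to 6.52) and in Axin2 (112 and 14.4 CPM, 7.80-fold, 4.17 to 14.5). Adventitial markers in cluster 20 summed to 22609 CPM and mesothelial markers to 7132 CPM, and the part of this mixture was not tested.

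**Figure D3:**
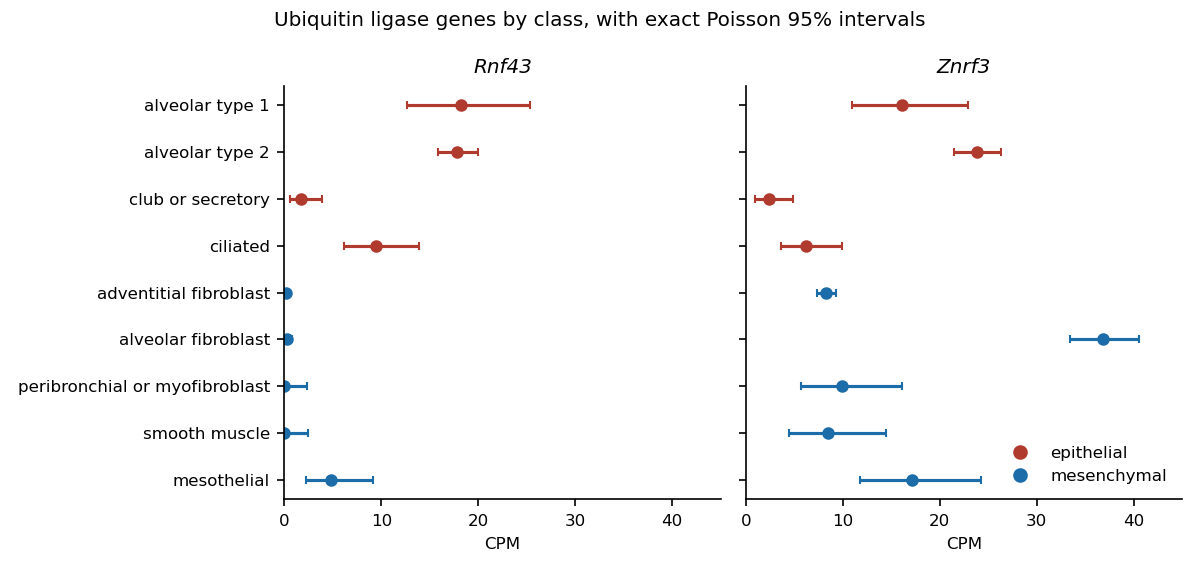
Rnf43 and Znrf3 levels in each cell class, in CPM with exact 95% counting intervals as bars. Rnf43 is highest in AT1-like (18.2) and AT2-like (17.8) cells and near 0 in the fibroblast-like classes, while Znrf3 is highest in alveolar fibroblast-like cells (36.9).

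Comparisons between classes gave the sizes of these differences beside those of all genes. A gene was measured in a comparison with at least 30 UMIs over both sets and counted as higher at a ratio of CPM of 2 or more, and as lower at 0.5 or less. In epithelial over mesenchymal cells 1 member was higher and 7 lower, against 19.7% and 25.3% of 14588 measured genes. Rnf43 was 38.9-fold higher (24.6 to 65.4). The ratios of the others were 0.0125 for Rspo4, 0.0313 for Lgr5, 0.0321 for Rspo3, 0.0431 for Rspo1, 0.126 for Rspo2, 0.201 for Lgr4 and 0.294 for Lgr6; Znrf3, at 1.22 (1.08 to 1.38), stayed inside the thresholds. The Rspo2 ratio rested on 3 epithelial UMIs (interval 0.0252 to 0.392) and was 0.797 with cells thinned to 2000 UMIs.

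In mesothelial-like over other mesenchymal cells Rspo1 and Rspo3 were higher, 72.1-fold (64.8 to 80.3) and 2.63-fold (1.52 to 4.28), where 15.3% of 13256 genes were higher. Cluster 12 held 10 of the 18 mesothelial-like Rspo3 UMIs. The others lay in cluster 20, where adventitial markers exceeded mesothelial ones. Cluster 12 alone stood at 5.99 CPM of Rspo3, against 3.89 CPM in all mesenchymal cells, so the call of Rspo3 as higher depended on cluster 20. Lgr6 and Rspo4 had no mesothelial UMI and were at most 0.182 and 0.465 times as high with 3 UMIs in place of 0, where 14.8% of genes were lower. The exact interval of the Rspo4 ratio reached 0.578, past the threshold, and the value was 0.698 without clusters of mixed markers and 0.954 with UMIs split between clustering and values. In adventitial-like over other mesenchymal cells no member was higher (background 6.4%) and 4 were lower (background 12.4%): Lgr6 (0.0206), Rspo1 (0.16), Znrf3 (0.283) and Lgr5 (0.488). Set against alveolar fibroblast-like cells alone, adventitial-like cells were higher in Rspo1 (7.79, 4.93 to 13.1) and Lgr5 (4.18), where 10.1% of 12811 genes were higher, and lower in Znrf3 (0.225, 0.192 to 0.262), where 8.94% were lower. Both Lgr5 ratios depended on how clusters were drawn and named: without clusters of mixed markers the ratio to alveolar fibroblast-like cells was 1.09, and under the first naming scheme, which left cluster 8 unnamed, the ratio to other mesenchymal cells was 3.10.

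In alveolar fibroblast-like over other mesenchymal cells Znrf3 was 4.20-fold higher (3.63 to 4.86) and Rspo4 2.10-fold higher (1.51 to 2.91), against 7.57% of genes, and 3 members were lower, against 12.9% of genes: Lgr6 (at most 0.0243), Rspo1 (0.0369) and Lgr5 (0.143). Without clusters of mixed markers the Rspo4 ratio was 5.90 and the Lgr5 ratio 0.724. In peribronchial or myofibroblast-like cells Lgr6 was 26.1-fold higher (21.4 to 31.8) and Lgr5 21-fold higher (15.6 to 28.1), against 7.61% of genes; Rspo1 (0.101) and Rspo3 (at most 0.461) were lower, against 13.1%. The exact interval of this Rspo3 ratio reached 0.573, past the threshold, and the value was 0.985 with UMIs split between clustering and values. In smooth muscle-like cells Lgr6 was 30.2-fold higher (24.8 to 36.7) and Rspo3 4.02-fold higher (2.45 to 6.28), against 9.9% of genes. Lower there, against 15.3% of genes, were Rspo1 (0.0176 on 1 UMI, interval 0.000446 to 0.0984), Rspo4 (0.19 on 1 UMI, interval 0.00479 to 1.08) and Lgr5 (at most 0.473). The exact interval of this Lgr5 ratio reached 0.587, past the threshold, and the value was 0.698 under the first naming scheme and 0.97 with doublets kept. Each contractile class was part of the set the other was compared with. The smooth muscle-like Lgr6 ratio was 361 without clusters of mixed markers, and at a resolution of 2.0 the peribronchial or myofibroblast-like one was 8.88; clusters, and so the classes themselves, also differed in these alternatives.

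Among epithelial classes, AT2-like over other epithelial cells were higher in Znrf3 (3.31, 2.49 to 4.47) and Rnf43 (2.06, 1.58 to 2.74), against 11.6% of 12446 genes, and lower in Lgr6 (0.0161) and Rspo1 (0.129), against 24.0%. With equal weight for each cell the Rnf43 ratio was 1.56. AT1-like cells were higher in Rspo1 (5.52, 2.52 to 11.4), against 23.6% of genes, and lower in Lgr6 (0.195 on 1 UMI, interval 0.00485 to 1.13), against 16%; this Rspo1 rested on 12 UMIs beside mesothelial markers at 918 CPM. Ciliated-like cells were higher in Rspo1 (2.87), against 29.0% of genes, on 10 UMIs. Their mesothelial markers summed to 710 CPM, with 3 of 10 at 0. At the mesothelial ratio Rspo1 was 0.10 times the level these would carry, but whether ciliated-like cells make some of them was not tested. Thinned or with UMIs split, Rspo1 fell short of the minimum of 30 UMIs. Ciliated-like cells were lower in Znrf3 (0.308), Lgr4 (0.31 on 2 UMIs, interval 0.0365 to 1.18) and Lgr6 (0.408 on 3 UMIs, interval 0.0816 to 1.25), against 15.7%. This Lgr6 ratio was 1.99 under a looser cell filter. Club-like cells were 63.8-fold higher in Lgr6 (27.5 to 181), against 2.72% of genes, and lower in Rnf43 (0.1) and Znrf3 (0.113), against 60.8%. A few secretory genes fill club-like libraries, and without the 23 most abundant genes 41.7% of their UMIs were left. With cells thinned to 2000 UMIs, 2 of 86 club-like cells held a receptor UMI and none held a ligase UMI. The thinned Lgr6 ratio was 16.1, but it fell short of the minimum of 30 UMIs over both sets. With no club-like ligase UMI left, the ligase ratios could not be measured at that depth.

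Ligand and receptor UMIs were spread unevenly over the classes, and several classes held both. Among adventitial-like cells 14.3% held a ligand UMI and 10.9% a receptor UMI, among alveolar fibroblast-like cells 5.23% and 3.91%, and among smooth muscle-like cells 8.21% and 46.7%. Among mesothelial-like cells 97.1% held a ligand UMI and 18.2% a receptor UMI; among peribronchial or myofibroblast-like cells 1.47% held a ligand and 47.9% a receptor UMI; among AT2-like cells the shares were 0.537% and 2.62%, and 33.0% held a ligase UMI. In all kept cells 904 held a ligand, 888 a receptor and 141 both, so that 15.6% of cells with a ligand held a receptor, against 9.30% of the others, and 67.9% held no UMI of any member. Thinned to 2000 UMIs, these shares with a receptor were 4.93% (2.90 to 7.77) and 3.40%, a difference not detectable at that depth. Both settings pool classes of unlike make-up, and the part of class in this gap was not tested. Of the 521 adventitial-like cells with a ligand UMI, 15.2% held a receptor UMI (12.2 to 18.5), against 10.2% of the other adventitial-like cells; thinned to 2000 UMIs the shares were 3.88% (1.27 to 8.81) and 2.44%, a difference that was not detectable at that depth.

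The rest of the Wnt pathway was described from 6 lists chosen with earlier results of these data known, by counts of measured genes and the median ratio beside that of all genes. The shares of all genes higher and lower were 15.3% and 14.8% for mesothelial-like and 7.61% and 13.1% for peribronchial or myofibroblast-like cells. They were 7.57% and 12.9% for alveolar fibroblast-like and 11.6% and 24.0% for AT2-like cells. List counts near these shares show nothing particular to a list. In mesothelial-like over other mesenchymal cells (median of all genes 1.03) 2 of 10 measured Wnt ligands were higher, Wnt7b (239, 73.7 to 1227) and Wnt2b (4.40), and 3 lower, Wnt5b (0.276), Wnt5a (0.382) and Wnt10b (at most 0.388); the list's median was 0.732. Of 15 secreted or surface modulators 3 were higher, the Wnt-binding Sfrp2 (95.1) and Sfrp1 (5.34) and the Wnt transporter Wls (2.57), and 7 lower, with the lowest ratios in Sfrp4 (0.013 on 1 UMI, to 0.0725), the Wnt deacylase Notum (0.0208 on 1 UMI, to 0.116) and Wif1 (at most 0.0489). Of 14 receptors 4 were higher, led by Fzd6 (7.16), Fzd3 (4.19) and Fzd5 (2.85), and 4 lower, led by Fzd8 (0.266), Fzd1 (0.289) and Ror2 (0.379). Wnt targets were higher in Ccnd1 (2.44) and Nkd1 (2.03) and lower in 6 of 12 measured, lowest in Notum, Nkd2 (at most 0.142) and Myc (0.186), with a median of 0.57. Bmpr1a (2.10) and Sdc4 (2.02), other binding partners of R-spondins, were higher with none of 7 lower, and in the beta-catenin core 1 of 17 was lower, Tcf7l1 (0.255), with none higher.

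In the peribronchial or myofibroblast-like cells (median of all genes 1) 3 of 10 Wnt ligands were higher, Wnt11 (6.15), Wnt5a (3.56) and Wnt6 (2.01, 0.899 to 3.93), and 4 lower, lowest in Wnt5b (0.0288 on 1 UMI, to 0.161), Wnt2 (0.0855) and Wnt4 (0.142). The secreted inhibitor Wif1 was 15.8-fold higher (14.2 to 17.5) and Frzb 2.32-fold (0.728 to 5.70), with 6 of 15 modulators lower, lowest in Sfrp4 (0.0605), Sfrp2 (0.0792) and Sfrp1 (0.169). Of 14 receptors the Wnt receptor Ryk was higher (2.05) and 5 were lower, lowest in Fzd4 (0.0632), Fzd6 (0.312 on 1 UMI, to 1.78) and Fzd2 (0.316). Of 12 Wnt targets 4 were higher, led by Tnfrsf19 (3.53), the feedback inhibitor Nkd1 (3.52) and the transcription factor Tcf7 (2.75), and 3 lower, Nkd2 (0.222), Ccnd1 (0.302) and Prickle1 (0.324), with a median of 1.76. Tcf7 was also the 1 of 17 core genes that was higher, with none lower. Tnfrsf19 and Sdc4 (2.75) were higher among 7 partners, with none lower.

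In the alveolar fibroblast-like cells (median of all genes 1.03), beside the high Znrf3, Tnfrsf19 (3.78, 3.44 to 4.17) and Axin2 (2.71, 2.42 to 3.03) were higher of 12 Wnt targets, and Myc (0.132) and Prickle1 (0.302) lower; the list's median was 0.734. Of 10 Wnt ligands Wnt2 was higher (11.5, 10.5 to 12.7) and 6 were lower, lowest in Wnt10b (at most 0.0516), Wnt2b (at most 0.0715) and Wnt7b (0.114 on 1 UMI, interval 0.00278 to 0.683). None of 15 modulators was higher and 8 were lower, lowest in Sfrp4 (0.00694), Sfrp2 (0.00909) and Sost (at most 0.0246). Of 14 receptors the planar polarity receptor Ptk7 (3.76) and the co-receptor Lrp5 (2.05) were higher and 4 were lower, lowest in Fzd6 (0.11 on 3 UMIs, interval 0.0223 to 0.331), Fzd4 (0.237) and Ror1 (0.376). Tnfrsf19 was the 1 of 7 partners that was higher, and Ndp (0.262) and Sdc1 (0.29) were lower. No core gene of 17 crossed either threshold.

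In AT2-like over other epithelial cells (median of all genes 0.878), beside the higher Znrf3 and Rnf43, 9 of 12 measured Wnt targets were higher, led by the transcription factors Sp5 (39.3, 17.9 to 108) and Ascl2 (14.9 with 1 UMI in the other cells, interval 2.49 to 608) and by Nkd1 (11.5, 9.07 to 14.9), and 2 were lower, Tnfrsf19 (0.108) and Prickle1 (0.11); the list's median was 3.04. Of 9 Wnt ligands none was higher and 8 were lower, lowest in Wnt11 (0.0101), Wnt7a (0.0342) and Wnt10b (0.0393). Of 8 modulators Notum was higher (3.79, 2.21 to 6.99) and 6 were lower, lowest in Wif1 (0.00776), the Wnt acyltransferase Porcn (0.0565) and Dkk3 (0.0886). Of 13 receptors 3 were higher, Ror1 (11.1), Lrp5 (3.91) and Fzd7 (3.36), and 3 lower, Fzd4 (0.211), Fzd2 (0.369) and Fzd3 (0.386). Of 17 core genes 4 were higher, led by the scaffold Apc (3.18), Tcf7 (3.17) and Pygo1 (2.33), and Btrc was lower (0.383). The syndecan Sdc1 (2.50) and Iqgap1 (2.28) were higher of 6 partners and Tnfrsf19 lower.

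The Gli1 lineage reporter allowed a comparison within a class. Reporter-high cells held at least 1000 CPM of Egfp and reporter-low cells under 200, and pairs were formed within a cluster from cells of the nearest depth. In the adventitial-like class 1052 pairs were drawn from 1691 reporter-high and 1376 reporter-low cells (median depths 10369 and 8873 UMIs). Rspo1 was 9.08 CPM in reporter-high cells (101 UMIs) and 18.9 CPM in reporter-low cells (182 UMIs), a ratio of 0.481 (0.373 to 0.617), 1 of 6 measured members and the only one past a threshold, where 0.514% of 11666 genes were higher and 0.669% lower. The others were Rspo3 at 0.60 (0.353 to 1.01), Lgr5 at 0.664 (0.369 to 1.18), Lgr4 at 1.01, Rspo4 at 1.21 and Znrf3 at 1.24 (0.903 to 1.7); Axin2 was 0.962, Gli1, the gene that drives the Cre, 1.02 (0.859 to 1.20) and Ptch1, a Hedgehog target, 1.36. The Rspo1 ratio was 0.525 with clusters drawn at a resolution of 2.0 and 0.521 with reporter-high cells taken from 500 CPM, both short of the threshold. Rspo2, below the measured minimum, had 9 and 20 UMIs. In the alveolar fibroblast-like class, with 627 pairs, Rspo4 (1.02), Lgr4 (1.88, 0.995 to 3.67) and Znrf3 (0.977) were measured and none crossed a threshold, nor did Axin2 (0.780, 0.625 to 0.973), where 0.369% of 10024 genes were higher and 0.389% lower.

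Wnt target levels were then set side by side in cells with and without a receptor UMI, paired in the same way. In 478 mesenchymal cells with Lgr4 (median depths 9086.5 and 9082 UMIs) none of 10 measured targets crossed a threshold, their median ratio was 0.948 against 0.997 for all 10811 genes, and the background was 0.749% higher and 0.425% lower. In 51 epithelial cells with Lgr4 none of 4 did, where 3.34% of 5361 genes were higher and 1.9% lower. In 140 mesenchymal cells with Lgr5 (6391.5 and 6379.5 UMIs) the feedback inhibitor Nkd2 was 27.1 CPM with and 11.2 CPM without Lgr5 (2.42, 1.16 to 5.41), 1 of 9 measured, against a background of 1.28% higher and 1.31% lower of 7037 genes; with clusters drawn at a resolution of 2.0 no target was higher with Lgr5. Notum was 149 CPM with and 77.4 CPM without Lgr5 (1.92, 1.45 to 2.57), Nkd1 1.44 (1.04 to 2.01) and Axin2 1.48 (0.896 to 2.48); the list's median was 1.43 against 0.996 for all genes. In 246 mesenchymal cells with Lgr6 (5192.5 and 4571 UMIs) Ccnd1 was lower (0.419, 0.202 to 0.833), 1 of 9 measured, where 2.12% of 8389 genes were higher and 1.67% lower, while Nkd1 was 1.42 (1.15 to 1.76) and the median was 0.707 against 1. No target was lower with Lgr6 at a resolution of 2.0 or with doublets kept. Receptor pairs in the same matched cells gave Lgr5 at 2.28 (1.16 to 4.77) with Lgr4, Lgr4 at 2 (1.05 to 4.02) with Lgr6 and Lgr5 at 0.526 (0.310 to 0.878) with Lgr6.

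**Figure D4:**
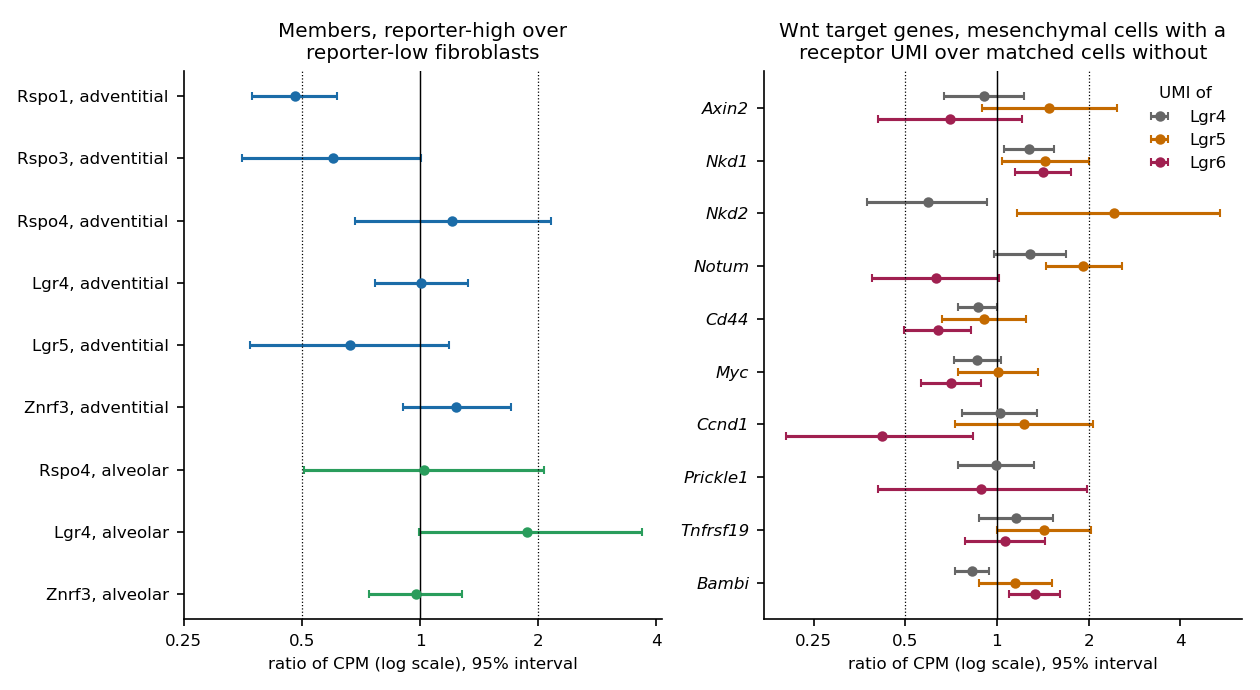
Ratios of levels (log axis, exact 95% counting intervals as bars) of members in reporter-high over reporter-low cells, and of Wnt target genes in cells with over matched cells without a Lgr4, Lgr5 or Lgr6 UMI. Rspo1 in adventitial-like cells lies at 0.481, Nkd2 and Notum with Lgr5 at 2.42 and 1.92, and Ccnd1 with Lgr6 at 0.419; at a resolution of 2.0 Rspo1 was at 0.525 and no target passed a threshold with Lgr5 or Lgr6.

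Across the 23 clusters, which share 1 library and differ in depth, the genes most like each member were ranked by Pearson correlation of log2(CPM + 1) over 13067 candidates. For Rspo1 these were Prlr (r = 0.89), 1700023F06Rik (0.88), Wt1 (0.86), Cldn15 (0.86) and Wnt2b (0.85). For Rspo3 they were Gfra4 (0.85), Pcdh11x, Cxcl13, Gucy1a2 and Tmem215, and for Rspo4 Rxrg (0.80), St6galnac5, Fam83a, Kcna2 and Gria1. Among the receptors, Lgr4 was closest to Pcdh7 (0.83), Msx1, Ntn1, Golim4 and Loxl2, Lgr5 to Pappa2 (0.92), 5930412G12Rik, Pde10a, Kcnb2 and Mapk4, and Lgr6 to the smooth muscle genes Kcnma1 (0.95), Cnn1 (0.93), Myh11 (0.92) and Actg2 (0.92) and to Sncg (0.90). Znrf3 was closest to Rdh13 (0.87), Cdkn2aip, Gatc, Bmp4 and Tmem98, and Rnf43 to Gprin3 (0.95), Vamp8 (0.95), Slc37a1, Trpm6 and Slc6a14. Znrf3 and Axin2 correlated at 0.71 and Lgr4 and Rnf43 at -0.65 over the same clusters. Rspo2 had too few UMIs to rank.

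The authors' deposited table of 17 clusters, made from the same cells and so no separate measurement, placed the members in clusters with like leading genes. In it the mean count of Rspo1 per cell was 4.83 in cluster 15 (led by Slurp1, Chst4 and Upk3b), that of Lgr6 0.698 and of Lgr5 0.126 in cluster 6, which also held Acta2 at 61.7 and Hhip at 13.1. In the same authors' deposited table Znrf3 averaged 0.330 and Axin2 0.450 in cluster 1 (Slc7a10, Bmper), and Rnf43 averaged 0.232 in cluster 17, 0.140 in cluster 4 and 0.124 in cluster 16 (Rtkn2).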

How the data were processed

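Single-cell RNA was captured from sorted mouse lung cells with a 3′ kit, and the authors deposited a matrix of raw UMI counts per gene and cell, made with Cell Ranger 3.0.0 on mm10 per the submitters' processing notes. A deposited table gives, per the file headers, the authors' mean count of each gene per cell of a cluster (a score here, since its scaling is not stated) and log2 fold changes; the mean counts are quoted and the log2 values are not. Doublets, strand setting and sample origin of cells were not given in the sources used here.

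Barcodes under 500 genes or above 10% of UMIs from mitochondrial genes were dropped, and scrublet (rate 0.08, seed 0) marked doublets (4.88%), which were removed. Scanpy 1.11.5 scaled each cell to 10000 UMIs and used 2000 variable genes, 30 principal components, 15 neighbours and Leiden clustering at resolution 1; members, pathway lists, mitochondrial, ribosomal and reporter genes were left out of clustering. Clusters took the name of the marker list with the highest mean z-score among lists with at least 3 detected markers. Another such list took its place where it had more genes among the leading genes of the cluster, and at least 3. With more but fewer than 3, the cluster stayed unnamed. So did clusters whose list had no positive z-score, and shallow ones with no marker among the leading genes. A first version of this scheme made no such replacement and left 3 clusters unnamed. It was revised after the clusters were seen, and the first version is given among the alternatives. Summed UMIs of a class or cluster became CPM, with 95% intervals from the Poisson distribution; ratios have exact conditional binomial intervals and shares Clopper-Pearson ones, all for counting error only. A set with 0 UMIs was put at 3 UMIs per set, which gives the "at most" bounds. Since the matrix is 1 sample, nothing was tested. On simulated counts the intervals held the true ratio for 96.3% of 13142 genes (mesothelial comparison) and 95.5% of 14499 genes (epithelial comparison), and 5.84% and 0.301% of unchanged genes passed a threshold. The simulated counts followed the same Poisson model as the intervals, so this coverage checks the calculation only. It says nothing of variation between cells, clusters or the 4 samples. Settings for resolution, doublets, filters, UMI splitting, thinning, cell weights and matching were varied. Clusters of mixed markers were those where the z-score of the naming list exceeded that of the second list by less than 0.3.

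The members and lists were chosen with earlier results of these data known. All 9 members are named; for each with at least 100 UMIs the 5 genes most like it are named; from each list, in the 4 comparisons whose lists are shown, the 3 highest at 2 or more and the 3 lowest at 0.5 or less are named. Marker RNA beside a level, and comparisons within a class, were added after the data were seen. Software was Python 3.11.15, matplotlib 3.10.9, pandas 2.3.3, igraph 0.11.9, numpy 2.4.6, leidenalg 0.10.2, scipy 1.17.1, scikit-learn 1.9.0 and anndata 0.12.19.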

Additional observations from a re-analysis of the deposited data

How the results depend on the processing

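Of 302 counts of members or targets past a threshold under an alternative, 255 stayed within 1.5 times the count reported and 47 did not; of 945 single ratios 98 moved by more than their interval and 4 turned direction. Of 954 levels 76 moved by more than their interval, and of 720 shares of cells 111 did. The ratio of Lgr6 in ciliated-like over other epithelial cells turned to 1.99 with a looser cell filter, 12.9 with cells thinned to 2000 UMIs and 1.06 with equal cell weights, on 3 UMIs, and the ratio of Lgr5 in adventitial-like over other mesenchymal cells to 3.10 under the first naming scheme, which left the class with most Lgr5 unnamed. With cells thinned to 2000 UMIs fewer UMIs could pass the minimum of 30: members higher numbered 1 in adventitial-like over alveolar fibroblast-like cells, 1 in alveolar fibroblast-like cells, 1 in AT2-like cells, and 0 in AT1-like, ciliated-like and club-like cells, and members lower numbered 0 in mesothelial-like, AT1-like, AT2-like and club-like cells. With UMIs split between clustering and values, members lower numbered 2 in adventitial-like over alveolar fibroblast-like cells, 1 in mesothelial-like, 5 in alveolar fibroblast-like, 1 in peribronchial or myofibroblast-like, 0 in AT1-like, 1 in AT2-like and 1 in ciliated-like cells, and members higher 0 in AT1-like and ciliated-like cells. At resolution 0.5, 1 member was higher in adventitial-like and 1 in alveolar fibroblast-like cells, and 0 were lower in AT1-like cells. At resolution 2.0, members lower numbered 2 in adventitial-like over alveolar fibroblast-like cells and 5 in alveolar fibroblast-like cells, 1 was higher in AT2-like cells, 0 were lower in reporter-high adventitial-like cells, and of the Wnt targets 0 were higher with Lgr5 and 0 lower with Lgr6. With doublets kept, 4 members were higher in adventitial-like over alveolar fibroblast-like cells, 1 in adventitial-like and 1 in AT2-like cells, and 0 targets were lower with Lgr6. Without clusters of mixed markers, adventitial-like over alveolar fibroblast-like cells had 1 higher and 2 lower, mesothelial-like cells 1 lower and adventitial-like cells 1 higher. Under the first naming scheme 1 member was higher in adventitial-like and 1 in alveolar fibroblast-like cells. With equal cell weights members lower numbered 5 in peribronchial or myofibroblast-like, 5 in smooth muscle-like and 0 in AT1-like cells. Without the most abundant genes 2 members were higher in club-like cells. Unmatched, 3 members were lower in reporter-high adventitial-like cells, 1 target was higher with Lgr4 in epithelial cells, 6 higher with Lgr5, and 1 higher and 2 lower with Lgr6. The share of all genes past a threshold under each alternative is not given beside these counts, so they do not show a change particular to the members. Beyond the construction of each alternative, the cause was not tested. No paired analysis was possible because the matrix does not map cells to the 4 samples and no replicate numbers join its columns. The sparse members set the limits: Rspo2 had 54 UMIs, and levels resting on fewer than 10 UMIs have intervals spanning several-fold.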
